A study of Arabidopsis thaliana with 109 samples.

Results

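The 94 genes described here had less transcript in wild-type Arabidopsis seedlings after 2 h in light of a low ratio of red to far-red (low R:FR, as under a leaf canopy) than in white light, and still had less after 2 further h back in white light (recovery). They were chosen from 33602 gene models of 1 expression table, of which 11120 averaged at least 10 TPM (a share of all transcripts, already set per transcript length) in white light. A member averaged at least 10 TPM in white light, had a log2 change of TPM + 1 of at most -0.8 both at 2 h and at recovery, and had every 2 h and recovery library below every white light library. The levels of that table therefore chose the members, and their changes in it are given as a description, with no test. By annotation, 86 members are protein-coding, 3 are noncoding and 5 are gene models of the plastid genome.

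All libraries came from light-grown whole seedlings on Linsmaier and Skoog medium. Age is not given in the sources used here. Table I holds 3 libraries each of wild type (Col-0) after 2 h of low R:FR, after 2 h of low R:FR with 2 h of recovery, and in white light. Table II holds 3 libraries each of the line pif457_PIF7:PIF7:4xMYC (PIF7-MYC line), sampled in white light and once low R:FR had lasted 5, 10 or 30 min. Its label describes a pif457 mutant to which a MYC-tagged PIF7 was returned. The labels do not say whether it is 1 transformant. Table III holds 2 libraries each of pif457 and of Col-0, after 30 min of low R:FR and in white light. PIF7 ranged from 0.35 to 1.47 TPM over the 4 pif457 libraries of table III, against 21.6 to 28.0 TPM over the 4 wild-type ones. PIF5 ranged from 1.60 to 4.03 TPM in pif457, against 19.2 to 42.7 TPM in wild type, and PIF4 from 3.12 to 11.9 TPM, against 13.7 to 47.1 TPM. In the 12 libraries of the PIF7-MYC line PIF7 ranged from 70.0 to 137.2 TPM and PIF5 from 2.68 to 5.82 TPM. PIF4 ranged from 12.9 to 22.4 TPM there, above all 4 pif457 libraries of table III and overlapping its wild-type ones. Its transcript was thus not as low in this line as in those pif457 libraries. A transcript level does not settle a genotype, which was not tested. The 2 tables hold separate sets of libraries.

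As background, phytochromes sense the ratio of red to far-red light, and low R:FR frees PHYTOCHROME INTERACTING FACTORs (PIFs), which bind the G-box, CACGTG, and turn on growth genes. Plants also run a circadian clock. CCA1 and its relatives, the REVEILLE (RVE) factors and the LNK coactivators act in its morning phase. The light-harvesting proteins of the LHC family bind chlorophyll around the photosystems, and their genes are under both light and clock control.

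Between 17714 and 19215 genes reached 1 TPM per library in the 3 tables. TPM keeps no read depth, so depth is unknown. Replicate 1 of pif457 at 30 min stood apart, with plastid transcripts at 15.1% of TPM, against 2.08 to 7.18% in the other libraries of table III. White light replicate 1 of table I stood apart for the members themselves. It was the highest white light library for 57 of the 94 (60.6%), against 32.9% of all genes of at least 10 TPM. Its level was 1.27 times the mean of replicates 2 and 3 at the median member, against 0.978 times at the median gene. It was at least 1.5 times that mean for 31 of the 94 members, beside 637 of the 11120 genes of at least 10 TPM. Without it all 94 members had every 2 h and recovery library below both white light libraries, which the rule had already fixed. The median changes were then -0.94 at 2 h and -0.99 at recovery, and 55 of the 94 met the whole rule. The labels do not call replicates separate cultures, so any p-value here measures spread among these libraries, which may be technical. No hour of harvest is given for these libraries, so light and time of day cannot be told apart, which touches the clock and antenna genes most. The 12 shade-raised marker genes, none of them members, had a median change of 3.06 at 2 h and -0.12 at recovery in table I.

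Across the 94 members the log2 change at 2 h ran from -2.08 to -0.80, with a median of -1.08. At recovery it ran from -2.73 to -0.81, with a median of -1.11. The median member stood at 45.9% of its white light mean at 2 h and at 45.1% at recovery, and the median of all genes of at least 10 TPM changed by -0.03 and 0.01. Levels spanned a wide range, with 7 members at 1000 TPM or more in white light, 24 between 100 and 1000 TPM and 63 under 100 TPM. Nearest inside the threshold were AT2G32880 at 2 h (-0.80) and RD22 and GAMMA-VPE at recovery (-0.81 each). Nearest outside were TPR4 at 2 h (-0.79) and FRO6 and GATA3 at recovery (-0.80 and -0.79).

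**Figure D1:**
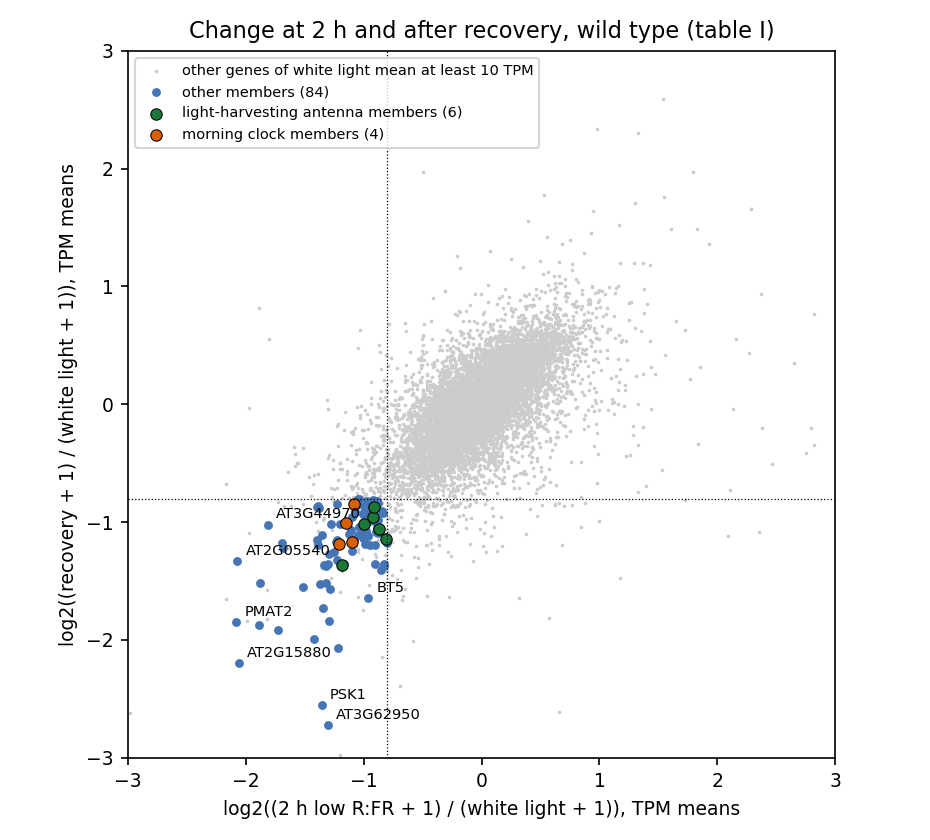
Log2 change of TPM + 1 at 2 h of low R:FR (x axis) and at recovery (y axis), both over white light, for the members (coloured) and the other genes of at least 10 TPM (grey); dotted lines mark -0.8, and 19 genes lie outside the axes. The members fill the lower left corner that the rule defines, down to -2.08 at 2 h and -2.73 at recovery.

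The most abundant members encode light-harvesting proteins, with 6 of the 21 genes of the antenna list. Without white light replicate 1 of table I none of the 6 met the rule: their 2 h changes then ran from -0.76 to -0.65 and their recovery changes from -0.99 to -0.71. LHB1B2 (LHCB1.5, AT2G34420), a major antenna protein of photosystem II, had 4744, 4483 and 4869 TPM at 2 h and 5265, 3484 and 5189 TPM at recovery, against 12927, 8825 and 6422 TPM in white light. Its 3 white light libraries differed among themselves by more than the 2 h libraries did, and replicate 1 was the highest. Its neighbour on chromosome 2, LHB1B1 (LHCB1.4, AT2G34430), had 2060, 2027 and 2111 TPM at 2 h and 1941, 1325 and 2213 TPM at recovery, against 7237, 3951 and 2890 TPM in white light. CAB2 (LHCB1.1, AT1G29920) averaged 2265 ± 300.1 TPM at 2 h and 2322 ± 445 TPM at recovery, against 4257 ± 751 TPM in white light (SD, n = 3 each). The LHCB1 genes are near-identical, as are the LHCB2 genes, so values of single copies rest on how the authors' counting divided shared reads.

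LHCB2.2 (AT2G05070) had 1498, 1262 and 1356 TPM at 2 h and 1166, 961 and 1138 TPM at recovery, against 2923, 2471 and 1839 TPM in white light. It is 1 of 7 members whose recovery libraries all lay below the 2 h libraries. LHCB2.1 (AT2G05100), on the same chromosome with 5 genes between, averaged 1764 ± 113 TPM at 2 h and 1554 ± 141 TPM at recovery, against 3230 ± 649 TPM in white light (SD, n = 3 each). LHCA4 (AT3G47470), an antenna protein of photosystem I, averaged 1645 ± 62.9 TPM at 2 h and 1603 ± 220 TPM at recovery, against 3115 ± 772 TPM in white light (SD, n = 3 each). The other 15 antenna genes had median changes of -0.47 at 2 h and -0.51 at recovery. Of these 15, 13 had lower means than white light at both times, and 8 had every library below white light. LHCB2.3 changed by -0.47 at 2 h and -1.20 at recovery, while LHCA5 and LHCB4.3 had higher means than white light at both times. The most abundant of the 15, LHCB1.3, changed by -0.57 and -0.59. No subunit of the nuclear photosystem list of 22 genes is a member, and the list's medians were -0.19 and -0.23. Of the 22, 19 had lower means at both times and 6 had every library below white light. None of the 16 chlorophyll synthesis genes is a member, and their medians were -0.13 and 0.03. Here 7 had lower means at both times and 6 had every library below white light.

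The clock supplied 4 members, all from the morning list of 14 genes, and 3 of them met the rule without white light replicate 1, RVE8 being the exception (-0.73 at recovery). CCA1 (AT2G46830), a MYB factor at the core of the clock, had 25.8, 30.0 and 27.2 TPM at 2 h and 27.0, 25.1 and 26.8 TPM at recovery, against 53.6, 64.3 and 63.1 TPM in white light. Here white light replicate 1 was the lowest of its group, and the 2 h and recovery libraries lay within 5 TPM of one another. LNK2 (AT3G54500), a coactivator that works with RVE factors, had 88.9, 64.3 and 88.5 TPM at 2 h and 99.5, 68.2 and 78.0 TPM at recovery, against 214.2, 159.6 and 188.2 TPM in white light. RVE1 (AT5G17300), which links the clock to auxin, averaged 17.0 ± 2.42 TPM at 2 h and 18.9 ± 1.42 TPM at recovery, against 38.9 ± 6.91 TPM in white light (SD, n = 3 each). RVE8 (AT3G09600), an activator of evening genes, had 27.2, 20.9 and 13.2 TPM at 2 h and 29.7, 19.9 and 23.1 TPM at recovery, against 51.7, 33.3 and 48.3 TPM in white light.

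Of the other 10 morning genes, 9 had lower means than white light at both times, with medians of -0.68 and -0.65. LHY, the closest relative of CCA1, fell short of the rule by little, at -0.78 and -0.85, and PRR7 and LNK1 missed it at recovery (-0.75 and -0.65). RVE2 lay on the other side, at 0.25 and 0.44. Of the 11 evening genes 4 had lower means at both times, and none had all libraries below white light. Their medians were -0.07 and 0.20.

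**Figure D2:**
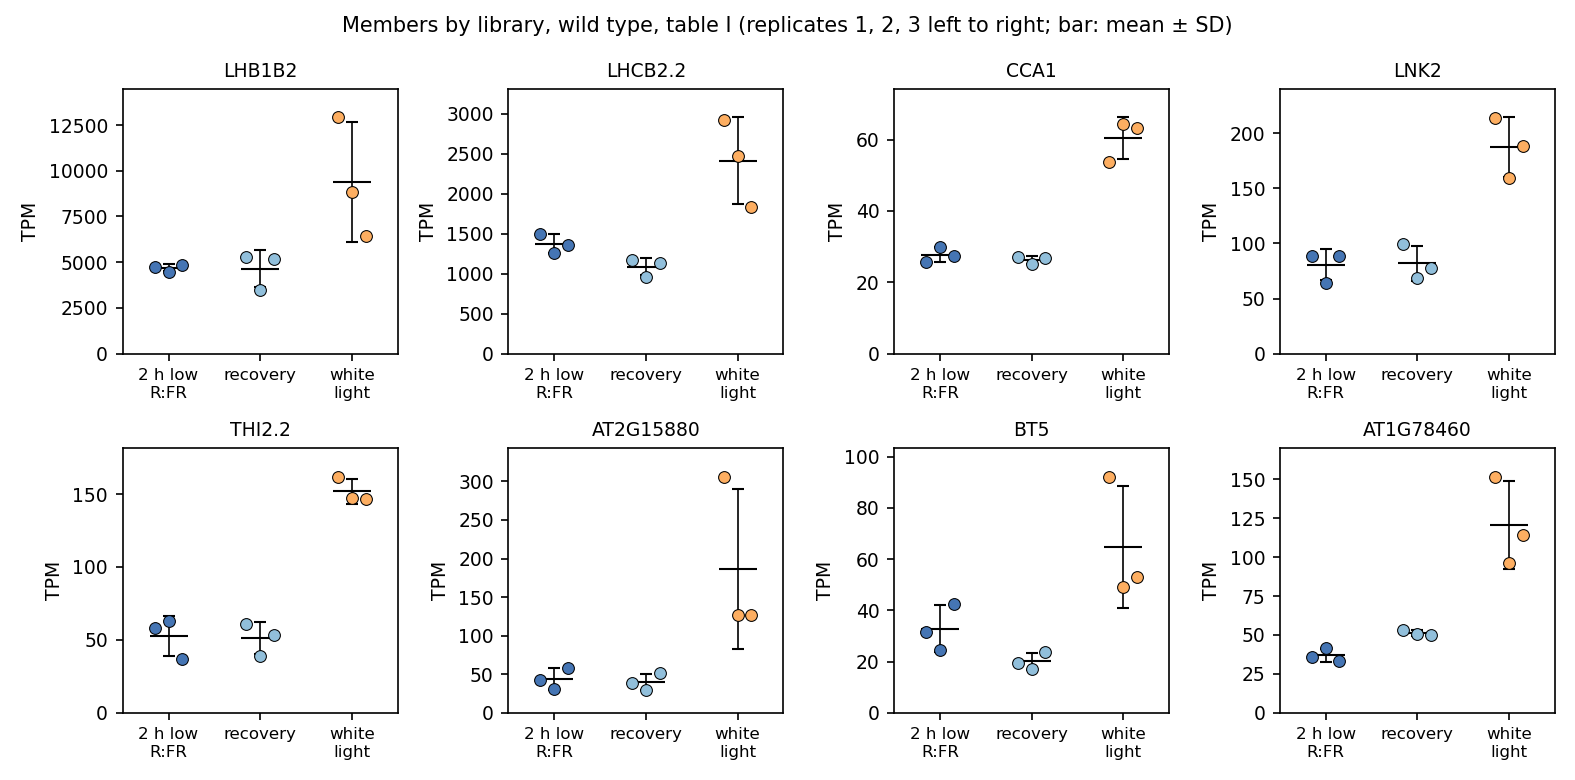
TPM of 8 members in each wild-type library of table I (y axes from 0), after 2 h of low R:FR, at recovery and in white light; points are replicates 1 to 3 from left to right, and bars give the mean ± SD. Every white light point lies above every other point of its panel, as the rule requires, and for AT2G15880 and BT5 the white light mean is drawn up by replicate 1 (306.3 TPM for AT2G15880, against 126.8 and 126.9 TPM in replicates 2 and 3).

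The lowest values relative to white light fell outside both lists. PMAT2 (AT3G29670), a malonyltransferase of phenolic glucosides, had 1.72, 1.86 and 2.04 TPM at 2 h and 3.08, 1.13 and 2.93 TPM at recovery, against 14.9, 6.62 and 12.0 TPM in white light. Its log2 change at 2 h, -2.08, was the lowest of the 94. AT2G15880 had 42.4, 31.0 and 58.6 TPM at 2 h and 38.7, 30.0 and 51.2 TPM at recovery, against 306.3, 126.8 and 126.9 TPM in white light. AT3G62950 reached the lowest recovery value (-2.73), with 7.40, 5.73 and 7.53 TPM at 2 h and 2.85, 0.92 and 2.06 TPM at recovery, against 31.9, 8.14 and 15.4 TPM in white light. PSK1 (AT1G13590), a precursor of the growth peptide phytosulfokine, had 6.18, 4.47 and 2.45 TPM at 2 h. It was listed at 0 in recovery replicates 1 and 2 and at 4.03 TPM in replicate 3, against 14.4, 13.8 and 10.0 TPM in white light. AT2G29300, AT5G53895, AT3G62510, AT1G66100 and AT3G52480 also ranked among the 10 lowest at recovery, with changes from -2.07 to -1.73.

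Of the 5 plastid gene models, ATCG01080, ATCG00520, ATCG01100 and ATCG01110 had 2 h changes of -1.89, -1.88, -1.70 and -1.29. Their recovery changes were -1.87, -1.52, -1.18 and -1.27. The plastid share of all TPM ran the other way in some libraries, at 7.05, 2.06 and 5.11% at 2 h and 1.70, 6.85 and 2.50% at recovery, against 2.90, 3.09 and 4.39% in white light. The fifth plastid member, ATCG00440, changed by -0.96 at 2 h and -0.91 at recovery. Whether these shares bear on the values was not tested.

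Defence and metabolism supplied further members. THI2.2 (AT5G36910), a thionin, which is a small antimicrobial peptide, had 57.9, 62.7 and 36.7 TPM at 2 h and 61.0, 39.3 and 53.5 TPM at recovery, against 162.0, 147.0 and 146.6 TPM in white light. It is the only member on the list of 11 defence and thionin genes, but 9 of the other 10 averaged under 10 TPM in white light. The rule could not choose those 9. GBSS1 (AT1G32900), the starch synthase that makes amylose, had 28.0, 18.2 and 24.9 TPM at 2 h and 27.1, 16.9 and 18.3 TPM at recovery, against 38.8, 56.9 and 67.8 TPM in white light. SNG1 (AT2G22990), which makes sinapoylmalate, a sunscreen of the leaf, had 166.4, 190.7 and 216.6 TPM at 2 h and 183.8, 158.3 and 181.6 TPM at recovery, against 452.4, 333.9 and 367.0 TPM in white light. BBX19 (AT4G38960), a B-box regulator of light responses, had 5.34, 9.33 and 9.18 TPM at 2 h and 6.37, 8.06 and 5.76 TPM at recovery, against 16.5, 13.7 and 16.3 TPM in white light. The noncoding AT4G38932 lies close to it, with 2 genes between, and changed by -1.11 at 2 h and -1.07 at recovery.

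The order of the recovery and 2 h libraries differed among members. The rule set both levels against white light, so these values are a description and nothing is read from their counts. The recovery mean was below the 2 h mean in 50 members and above it in 44, with a median change of -0.03 between them. The libraries of the 2 times overlapped in 84. In 7 members all recovery libraries lay below all 2 h libraries, beside 7.61% of the 11120 genes. BT5 (AT4G37610), a BTB and TAZ domain protein that answers to sugar and nitrogen, is one, with 19.5, 17.0 and 23.7 TPM at recovery, against 31.4, 24.4 and 42.6 TPM at 2 h. BMY3 (AT5G18670), of the beta-amylase family, is another, with 31.5, 28.1 and 36.3 TPM at recovery, against 48.2, 41.7 and 51.9 TPM at 2 h. COL2, a CONSTANS-like factor, LHCB2.2, AT1G80440 (an F-box protein, KFB20), AT3G62950 and AT2G29300 complete them.

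In 3 members all recovery libraries lay above all 2 h libraries, beside 10.4% of the 11120 genes. AT1G78460 had 53.2, 50.5 and 49.8 TPM at recovery, against 35.5, 41.7 and 33.4 TPM at 2 h, while its white light libraries held 151.8, 96.2 and 114.0 TPM. AT2G05540 had 312.0, 234.1 and 283.0 TPM at recovery, against 140.4, 151.1 and 203.4 TPM at 2 h. AT3G44970 had 15.5, 19.3 and 22.0 TPM at recovery, against 7.52, 12.4 and 11.5 TPM at 2 h. These 3 had made up part of the difference, and by the rule none had reached a white light library.

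PIF7 binding was compared next, from 3 deposited lists of events (positions where the tagged PIF7 was enriched). They hold 1052, 998 and 1408 events, called at ZT4 against IgG, at ZT4 with 3 samples each in low R:FR and white light, and at 30 min against white light. Of the 86 protein-coding members 4 were the nearest gene within 3 kb of an event of any list, beside 7.17% of the genes of at least 10 TPM. For 2 members, ATG12A and AT4G33467, all 3 lists held such an event, beside 2.74% of those genes. The authors' values put the ATG12A event high in the 30 min list, at rank 47, with a strength of 339, a fold over control of 8.8 and a −log10 q of 58.7. ATG12A (AT1G54210) encodes a ubiquitin-like protein of autophagy. The AT4G33467 event ranked 133 in that list (strength 244, fold 6.3), the UP6 event 232 (192, 6.8) and the AT3G10020 event 1015 (90.0, 2.7), and AT3G10020 had none in the other lists. No antenna or clock member was among them.

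The caller attached a short sequence, a k-mer, to each event. They are shown because the PIF7 events at members carried the G-box, given in capitals, with n for any base, at chromosome 1 position 5727492, chromosome 1 position 20239748 and chromosome 4 position 16102318 of TAIR10, from the second ZT4 list and as deposited.
UP6: gtgaCACGTGgt
ATG12A: gnccgCACGTGncg
AT4G33467: gaaCACGTGgcgtg
A G-box k-mer was attached to 62.5%, 79.7% and 69.9% of all events of the 3 lists. At 5 min of low R:FR, when PIF7-MYC line levels were compared with white light, ATG12A changed by 0.55, UP6 by 0.30 and AT4G33467 by 0.46, and none passed the test described next. AT3G10020 rose, by 0.74 (adjusted p = 0.0499, limma). In the same line at 30 min AT4G33467 averaged 10.7 TPM, against 4.75 TPM in white light, and ATG12A 14.6 TPM, against 10.6 TPM. UP6 averaged 15.9 TPM in both, and AT3G10020 208.8 TPM, against 128.7 TPM. None of these genes passed at 30 min.

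Tables II and III did not choose the members, so limma, fitted to log2(TPM + 1) of all genes with Benjamini-Hochberg adjustment, could be used as a test there, with calls at an adjusted p under 0.05. AT2G24945 was at 0 in both tables, and the other 93 members were tested. At 5 min in the PIF7-MYC line 19 members rose, beside 2.58% of the 24589 genes tested, and 0 fell, beside 1.31%. Of the genes of at least 10 TPM in white light of table II, 4.8% rose and 2.2% fell. The unadjusted p was under 0.05 in 39 members that lay higher, beside 11.8% of all genes, and in 3 that lay lower, beside 7.23%. The median member changed by 0.30 and the median of all genes by 0.01, and 24 members lay below 0, beside 42.8% of the genes of at least 10 TPM in white light of table II. In 43 members every 5 min library lay above every white light library, beside 21.4% of the genes of at least 10 TPM. The genotype and table differ from those of the 2 h libraries, so the times cannot be joined into 1 course.

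AT2G33830, annotated as dormancy-associated gene DRM2, had 472, 550 and 480 TPM in white light, 997, 984 and 1052 TPM at 5 min, 698, 867 and 589 TPM at 10 min and 817, 798 and 908 TPM at 30 min. It rose at all 3 times, by 1.01 at 5 min (SE 0.12, adjusted p = 0.0039), 0.50 at 10 min (adjusted p = 0.0407) and 0.75 at 30 min (adjusted p = 0.00746, limma). AT2G15880 had 36.9, 39.3 and 34.5 TPM in white light and 90.8, 83.2 and 86.9 TPM at 5 min, and rose by 1.22 (SE 0.18, adjusted p = 0.00687, limma). At 10 min it held 65.1, 54.5 and 36.5 TPM and at 30 min 46.0, 41.6 and 55.4 TPM, and passed no test there. AT1G78460 had 46.7, 43.9 and 45.9 TPM in white light and 64.3, 73.5 and 75.5 TPM at 5 min, a rise of 0.63 (SE 0.06, adjusted p = 0.00224, limma). It stayed raised at 10 and 30 min, by 0.33 and 0.29.

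The noncoding AT4G38932 had 25.6, 27.5 and 26.0 TPM in white light, 37.6, 37.6 and 39.8 TPM at 5 min, 40.5, 38.5 and 41.7 TPM at 10 min and 35.6, 39.9 and 43.7 TPM at 30 min. It rose by 0.52, 0.59 and 0.57 (adjusted p = 0.00517, 0.00619 and 0.00127, limma). With the noncoding AT1G11175 these make 4 members raised at all 3 times. Whether the counting used strand is not given in the sources used here, so reads of these 2 noncoding genes cannot be told apart from those of an overlapping gene on the other strand.

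Others raised at 5 min have known roles. VTI1B, a SNARE of vesicle traffic, rose by 0.58 (adjusted p = 0.0108), and BGAL1, a beta-galactosidase of the cell wall, by 0.87 (adjusted p = 0.0121). PLPB, a PAS/LOV protein with a light-sensing domain, rose by 0.81 (adjusted p = 0.0155), SNG1 by 0.46, the bZIP factor BZIP9 by 0.58 and TPS8, of the trehalose-phosphate synthase family, by 0.73. AT2G32880 rose by 0.62 (adjusted p = 0.00614, limma). Of the 19 raised genes 6 kept the call in all 18 alternatives tried, AT2G15880, AT1G78460, AT4G38932, AT2G33830, VTI1B and AT2G32880. The count was 9 without white light replicate 1, 9 without white light replicate 3, and 8, 12 and 6 without 5 min replicates 1, 2 and 3.

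At 10 min 6 members had risen, beside 4.19% of all genes, and 5 had fallen, beside 2.24%. At 30 min 10 had risen, beside 3.8%, and 5 had fallen, beside 1.03%, a split that became 4 risen, beside 2.29%, and 8 fallen, beside 2.41%, with every library centred on its median gene. Of the genes of at least 10 TPM in white light of table II, 4.26% rose and 4.54% fell at 10 min. At 30 min 6.09% of them rose and 1.79% fell. The median member changed by 0.06 and 0.08, close to the medians of all genes, 0.07 and 0.05. THI2.2 fell at both times. It had 336, 348 and 365 TPM in white light, 311, 275 and 295 TPM at 5 min, 228, 214 and 179 TPM at 10 min and 245, 202 and 198 TPM at 30 min. Its changes were -0.76 at 10 min (SE 0.10, adjusted p = 0.00742) and -0.70 at 30 min (SE 0.10, adjusted p = 0.00357, limma), and both calls held in all alternatives. Of all calls, 1 of 6 raised and 1 of 5 fallen at 10 min, and 2 of 10 and 2 of 5 at 30 min, did so.

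GBSS1 was the other member that fell at both times, by 0.83 and 0.57 on the log2 scale (adjusted p = 0.0164 and 0.0498, limma). At 10 min NDA1, an alternative NADH dehydrogenase, GPX7, a glutathione peroxidase, and NCED4, a carotenoid-cleaving enzyme, also fell, with changes of -0.83, -0.73 and -0.69. At 30 min UBC17, a ubiquitin-conjugating enzyme, had 8.35, 9.75 and 7.83 TPM, against 13.6, 21.7 and 18.0 TPM in white light, and fell by 0.94 on the log2 scale (adjusted p = 0.00558, limma). AT1G66100 fell by 0.81 (adjusted p = 0.0096) and OFP16 by 0.43 (adjusted p = 0.0368, limma).

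The counts at these times rest on few libraries. The 5 fallen at 10 min were 3 without white light replicate 1, 1 without white light replicate 3 and 2 without 10 min replicate 3, and the 6 raised were 2 and 1 without those white light replicates, 11 without white light replicate 2, and 3 without 5 min replicate 2 or 10 min replicate 1 or 2. At 30 min the 10 raised were 5 and 6 without white light replicates 1 and 3, 3 without 30 min replicate 1, 16 without replicate 2 and 3 without replicate 3, and the 5 fallen were 3 without white light replicate 1 or 3, without 10 min replicate 2, or without 30 min replicate 1 or 2. Beside the 10 min values, the summed TPM of the 15 root markers was 1112, 1211 and 1201 at 10 min, against 472, 924 and 559 in white light, and 3 of them rose. Their part in the result was not tested.

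Antenna and morning clock members did not pass the test in the PIF7-MYC line at any time. LHB1B2 had 11439, 10286 and 10411 TPM in white light, 12811, 13124 and 14499 TPM at 5 min, 13028, 13533 and 11353 TPM at 10 min and 11519, 12830 and 9506 TPM at 30 min. Every 5 min library lay above the white light ones, and the 30 min libraries overlapped them. Over the 6 antenna members changes ran from 0.02 to 0.62 at 5 min, from -0.28 to 0.44 at 10 min and from -0.27 to 0.30 at 30 min. CCA1 had 63.4, 52.6 and 66.2 TPM in white light, 77.2, 61.6 and 56.6 TPM at 5 min, 71.5, 50.6 and 43.3 TPM at 10 min and 50.3, 54.1 and 55.9 TPM at 30 min, so the groups overlapped. Over the 4 clock members changes ran from 0.08 to 0.48, from -0.16 to 0.04 and from -0.18 to 0.04.

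**Figure D3:**
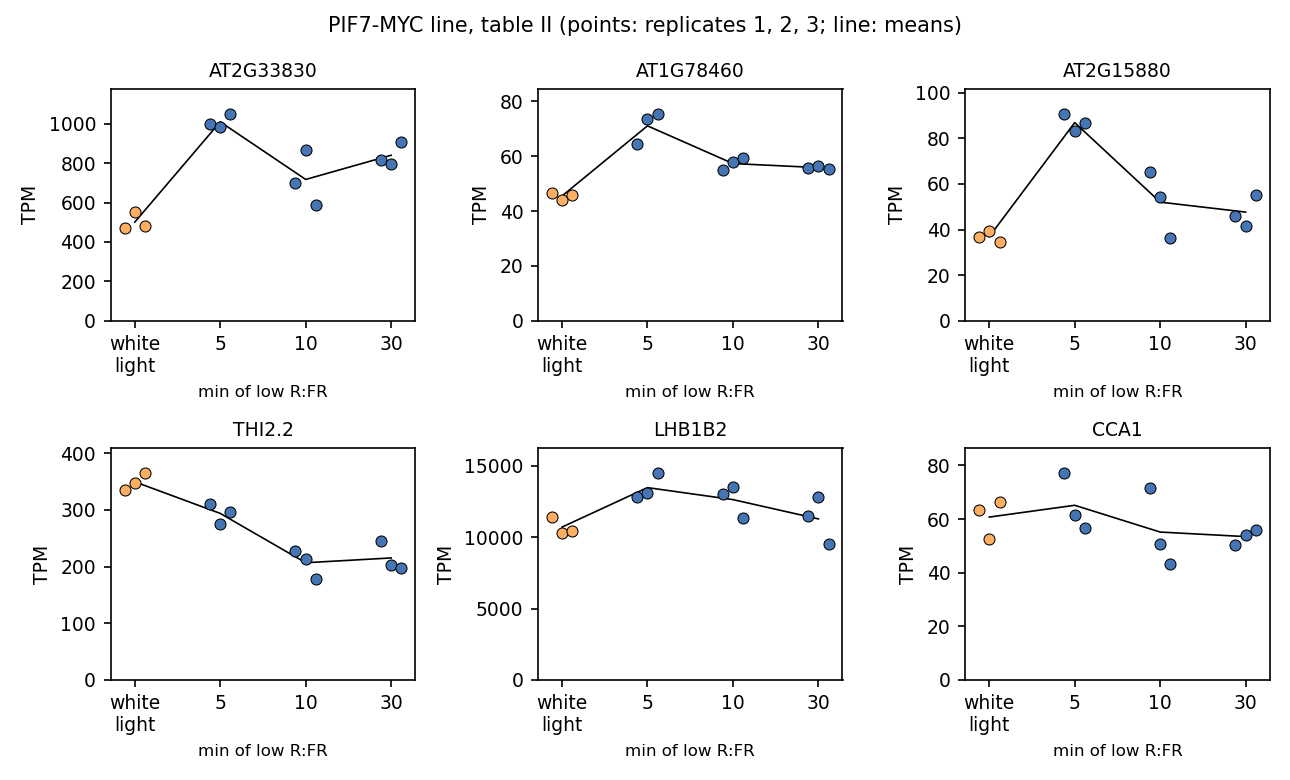
TPM of 6 members (y axes from 0) in the PIF7-MYC line under white light and once low R:FR had lasted 5, 10 or 30 min (categories on the x axis, not to scale in time); points are replicates 1 to 3 and the line joins the means. AT2G33830, AT1G78460 and AT2G15880 were highest at 5 min, THI2.2 was lower at 10 and 30 min, and LHB1B2 and CCA1 overlapped white light at 30 min.

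Table III sets pif457 beside wild type at 30 min. In wild type 0 members passed the test in either direction, beside 0.0% of the 24384 genes that fell and 0.119% that rose. At an unadjusted p under 0.05, 24 members lay lower, beside 1.68% of all genes, and 4 higher, beside 7.05%. The median member changed by -0.21, against 0.05 for all genes, and 66 of 93 lay below 0, beside 39.0% of the genes of at least 10 TPM in wild-type white light of table III. In 43 members both 30 min libraries lay below both white light libraries, beside 15.1% of the genes of at least 10 TPM. Among genes with a mean of at least 1 TPM, 19 members fell, beside 0.709% of 18772 genes, and 5 rose, beside 2.59%. With every library centred on its median gene, 10 fell, beside 0.525%, and 1 rose, beside 1.03%.

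In pif457 too 0 members passed, beside 0.0123% of all genes, with 13 lower, beside 8.39%, and 8 higher, beside 1.02%, at an unadjusted p under 0.05. The median member changed by -0.02, against -0.14 for all genes. Centred on the median gene, that -0.14 became 0.06, the median member changed by 0.17, while 5 members rose, beside 0.349%, and 0 fell, beside 0.365%. Both 30 min libraries bear on these values. Without replicate 2, 8 members fell, beside 22.4% of all genes, and 1 rose, beside 0.313%, and the median member changed by -0.31. Without replicate 1 it changed by 0.20, with 0 calls. Both 30 min libraries lay below both white light libraries in 25 members, beside 30.2% of the genes of at least 10 TPM. The difference between the genotypes' changes passed for 0 members, beside 0.041% of all genes. Its median was 0.24 over the members and -0.20 over all genes, and 11 members lay higher, beside 0.796%, and 5 lower, beside 10.8%, at an unadjusted p under 0.05. Without pif457 30 min replicate 2 that member median was -0.03 and 2 members passed as lower, beside 12.8% of all genes, and 0 as higher, beside 0.161%. Without replicate 1 it was 0.44 and 0 passed.

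**Figure D4:**
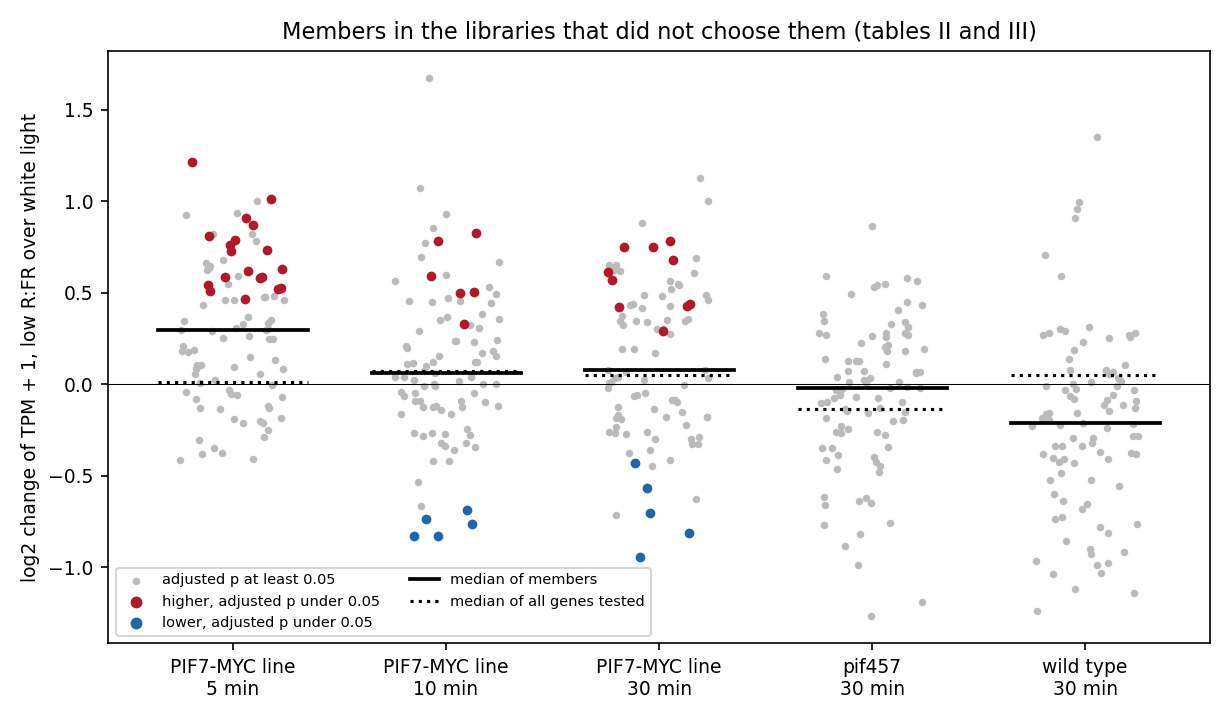
Log2 change of TPM + 1, low R:FR over white light (y axis), of the 93 tested members in the PIF7-MYC line at 5, 10 and 30 min, in pif457 at 30 min and in wild type at 30 min; each point is a gene, coloured where the adjusted p is under 0.05 (limma), with sideways scatter for display only. Solid bars give the median of the members (0.30, 0.06, 0.08, -0.02 and -0.21) and dotted bars that of all genes (0.01, 0.07, 0.05, -0.14 and 0.05).

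The antenna members lay lower at 30 min in both genotypes. LHB1B2 had 3569 and 3738 TPM in pif457 at 30 min, against 7785 and 6730 TPM in pif457 in white light. In wild type it had 4664 and 3774 TPM at 30 min, against 7262 and 8598 TPM in white light. The log2 changes were -0.99 in pif457 (adjusted p = 0.258) and -0.91 in wild type (adjusted p = 0.188, limma), with a difference of -0.07 (SE 0.31) between them. LHCB2.2 had 678 and 879 TPM in pif457 at 30 min, against 1388 and 1339 TPM in white light, and 785 and 854 TPM in wild type at 30 min, against 1409 and 1838 TPM in white light. LHB1B1 had 2093 and 2764 TPM in pif457 at 30 min, against 4465 and 3229 TPM in white light, and 2690 and 1973 TPM in wild type at 30 min, against 4623 and 6375 TPM in white light.

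All 6 antenna members had both 30 min libraries below both white light libraries in pif457, beside 30.2% of the genes of at least 10 TPM, with changes from -0.99 to -0.34. Without pif457 30 min replicate 1, the library of high plastid share, these changes ran from -0.95 to -0.14, and with every library centred on its median gene from -0.79 to -0.15. In wild type all 6 had the same order, beside 15.1%, with changes from -1.24 to -0.42. None passed the test with all genes in the fit. Among genes of at least 1 TPM LHB1B1, LHCB2.2, LHB1B2, LHCA4 and LHCB2.1 fell in wild type, and 3 of the 6 fell in pif457. The difference between genotypes ran from -0.07 to 0.58 and passed for none. Of the other 15 antenna genes 10 had both libraries below both in pif457 (median -0.31) and 10 in wild type (median -0.43). The clock members showed no such order, with changes from -0.18 to 0.35 in pif457 and from -0.40 to 0.29 in wild type.

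**Figure D5:**
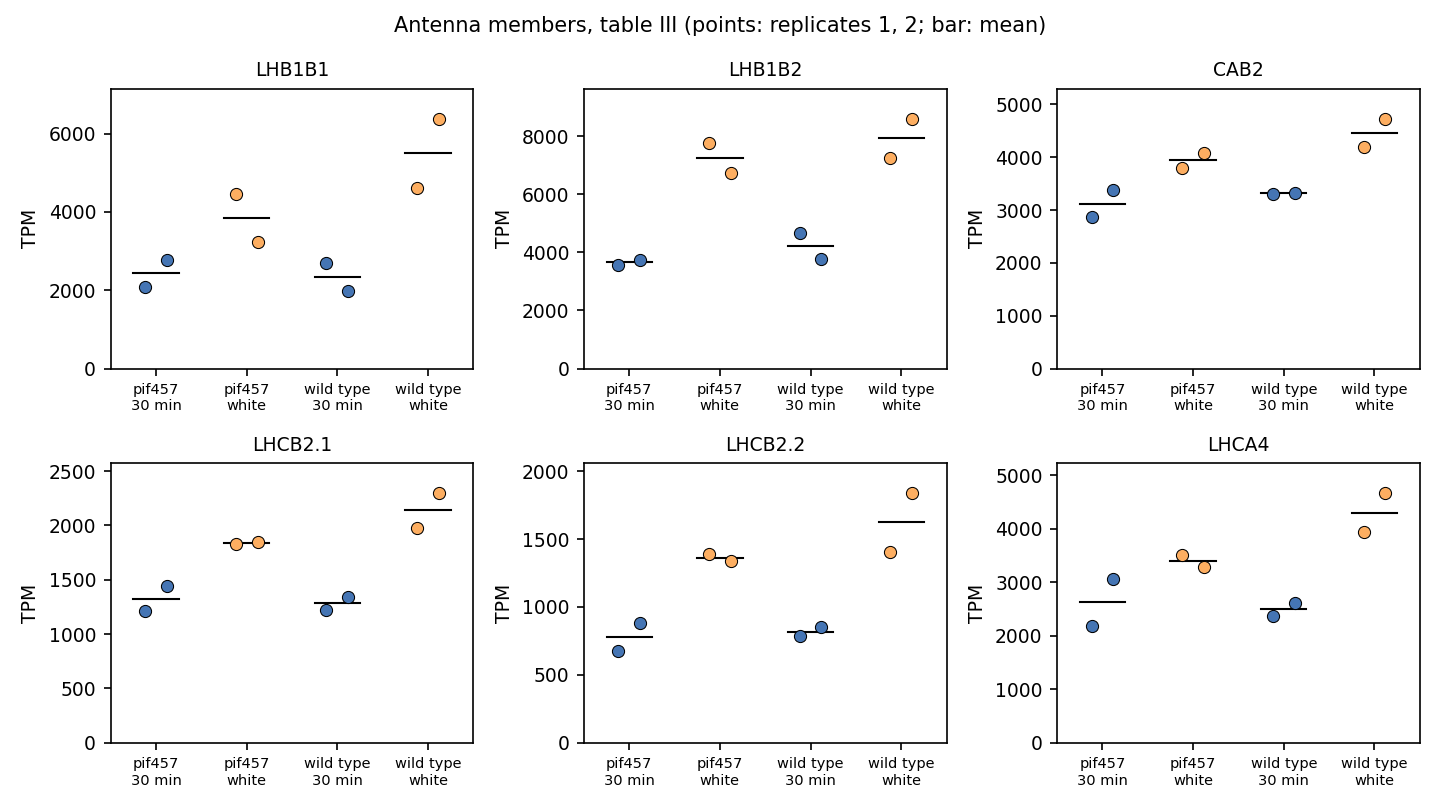
TPM of the 6 antenna members in each library of table III (y axes from 0), with pif457 left of wild type and 30 min of low R:FR left of white light in each; points are replicates 1 and 2, and bars are means. In every panel the 30 min points of a genotype lie below its white light points, for example LHB1B2 at 3569 and 3738 TPM, against 7785 and 6730 TPM, in pif457.

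In white light 0 members differed between pif457 and wild type, beside 0.0287% of all genes, with 2 lower, beside 1.73%, and 7 higher, beside 2.51%, at an unadjusted p under 0.05. At 30 min 3 members were lower in pif457, beside 5.04% of all genes, and 3 were higher, beside 0.209%. Of the genes of at least 10 TPM in wild type at 30 min, 3.11% were lower and 0.167% higher. Lower were GSTU14, a glutathione transferase (log2 difference -2.46, adjusted p = 0.0123), AT3G25190, of the vacuolar iron transporter family (-2.10, adjusted p = 0.0186), and AT1G64590 (-1.53, adjusted p = 0.0189, limma). GSTU14 was low throughout table III, with 0.09 and 0.29 TPM in pif457 at 30 min, against 7.25 and 4.19 TPM in wild type. In wild-type white light of table III it had 2.56 and 0.85 TPM, although the rule required a mean of at least 10 TPM in table I. AT3G25190 had 4.13 and 9.74 TPM in pif457, against 39.2 and 24.2 TPM in wild type. In white light the same gene had 8.78 and 8.12 TPM in pif457, against 17.3 and 13.7 TPM in wild type. In the fit of genes of at least 1 TPM, GSTU14, AT3G25190 and AT1G64590 rose in wild type at 30 min, by 1.35, 0.96 and 0.91.

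Higher in pif457 at 30 min were GPX7 (1.25, adjusted p = 0.0359), BMY3 (0.85, adjusted p = 0.0418) and ATCG00440 (1.02, adjusted p = 0.048, limma). BMY3 had 122.9 and 159.6 TPM in pif457, against 68.0 and 87.8 TPM in wild type. Beside these 6 genes, 8 of the 15 root markers were lower in pif457 at 30 min, with a summed TPM of 765 and 1169, against 1607 and 1387 in wild type, and their part in the result was not tested. In bulk seedlings fewer cells of a type and less RNA per cell cannot be told apart. Of the 6 calls none held in all alternatives. The 3 lower became 1 without any one of the 4 white light libraries, 0 without either wild-type 30 min library or pif457 30 min replicate 1, and 5 without pif457 30 min replicate 2. The 3 higher became 1 without wild-type white light replicate 1 or pif457 30 min replicate 2, and 0 without any other library. The split of 3 lower and 3 higher became 3 and 13, beside 7.99% and 1.79% of genes, with rRNA and organellar genes removed. It became 3 and 34, beside 5.66% and 3.9%, with every library centred on its median gene, which moved the median of all genes to 0.05, against -0.16 as deposited.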

How the data were processed

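The expression tables hold TPM computed by the authors, with the same sum in every library, and STAR 2.6.0c, RSEM 1.3.0 and the build TAIR10 are named per the submitters' processing notes. The event lists hold deposited values per event, with a signal (strength, named IP per the file headers), a fold over control and a −log10 q. Bowtie2 2.1.0 is named for ChIP per the submitters' processing notes. The event caller is GEM on pooled samples, per the deposited descriptions, which number the second ZT4 list's samples the other way round than the titles. All value columns were mapped (0 unmapped).

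The members, gene lists and tests were chosen with earlier results of these data known. The rule used table I, with a pseudocount of 1, so tests were run in tables II and III alone. On log2(TPM + 1), limma 3.58.1 (under R 4.3.3, variance trend on) was run over all groups of a table, leaving out genes at 0 throughout, in place of a count test. The procedure was tested on simulated data. Fold changes on this scale understate those of low genes. TPM keeps no counts, so no interval or floor is given. Events were assigned to the nearest protein-coding gene within 3 kb. Symbols come from RefSeq (TAIR10.1), which matched 89 members. Named genes are the extremes at 2 h and recovery, the 5 most abundant, those at the threshold, the 10 of smallest adjusted p, list members, neighbours and genes with events. Further members named in tables II and III, and for recovery against 2 h, were chosen after their values were seen. Alternatives were another pseudocount (0.1), filter, 2 scalings, a replicate block, smaller fits and leaving out each library. Samples of H2A.Z and other chromatin marks were not used here. Python 3.11.15, pandas 2.3.3 and matplotlib 3.10.9 were used for the rest.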

Additional observations from a re-analysis of the deposited data

How the results depend on the processing

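The rule gave 46 genes with a threshold of -1 and from 83 to 173 when 1 library of table I was left out. Among genes with a mean of at least 1 TPM, 31 members rose at 5 min, 11 at 10 min and 19 at 30 min in the PIF7-MYC line. The same filter gave 19 lowered and 5 raised in wild type at 30 min, 9 and 1 in pif457, 2 lower and 3 higher in pif457 in white light, 13 higher in pif457 at 30 min, and 10 with a difference between genotypes. Centring every library on its median gene, 8 fell and 4 rose at 30 min in the PIF7-MYC line, 10 fell and 1 rose in wild type, 0 fell and 5 rose in pif457, 34 were higher in pif457 at 30 min, and 8 differed between genotypes. Centring moved the median of all genes in pif457 at 30 min to 0.06, against -0.14 as deposited. With rRNA and organellar genes removed, 13 were higher in pif457 at 30 min. Fitted on the compared groups alone, 1 fell and 1 rose at 10 min, 2 fell and 3 rose at 30 min in the PIF7-MYC line, 3 fell in pif457, and 8 were higher in pif457 at 30 min. In wild type at 30 min the 1 TPM filter gave 133 lower and 486 higher over all genes, against 0 and 29 without it. Counts in this section without a share of all genes beside them show how calls move with the settings. They are not read as results about the members. The cause of these moves was not tested.

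Leaving out 1 library gave, in the PIF7-MYC line, from 0 to 1 lowered and 6 to 25 raised at 5 min, 1 to 7 and 1 to 11 at 10 min, and 3 to 6 and 3 to 16 at 30 min. In table III, where the lone sample is assumed to vary like the other groups, it gave 0 to 0 either way in wild type, 0 to 8 lowered (8 without pif457 30 min replicate 2) and 0 to 1 raised in pif457, 0 to 0 in white light, 0 to 5 lower and 0 to 1 higher in pif457 at 30 min, and 0 to 2 differing between genotypes. With the replicate block 11 members rose at 5 min and 3 fell at 30 min in the PIF7-MYC line. Residuals of same-number libraries had a median correlation of -0.06 in table II (18 pairs) and -0.02 in table III (12 pairs). Single pairs ran from -0.29 to 0.33 and from -0.26 to 0.37. The medians showed no pairing by number, but so few pairs cannot exclude it. Of the values of single genes under these alternatives, 642 kept the call, 251 lost it and 0 changed sign. Events within 1 kb named 3 members and within 5 kb 4. The promoter motif test was not run, since no promoter sequence was used here. TPM gives no depth, so counting error cannot be set apart, and with 2 libraries a group table III shows large changes alone.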

Other observations

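The members that rose at 5 min in the PIF7-MYC line were often those highest in white light replicate 1 of table I. That library was at least 1.5 times the mean of the other 2 for 13 of the 19, against 31 of all 93 tested members, and for 0 of the 8 members that fell at 10 or 30 min. Without that library 9 of the 19 met the rule. This was noticed in the values and has no test, and the cause was not tested.

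The list of 10 dark-inducible and starvation genes, none of them members, showed the same pair of values. White light replicate 1 was at least 1.5 times the mean of the other 2 for 8 of them, with a median of 1.81 times. In the PIF7-MYC line 9 of the 10 rose at 5 min, beside 2.58% of all genes (adjusted p under 0.05, limma). At 10 min 1 rose and 1 fell, beside 4.19% and 2.24%, and at 30 min 5 rose, beside 3.8%. In wild type at 30 min 0 passed, with a median of -0.35. In table I their medians were -0.92 at 2 h and -0.55 at recovery. The lists with the next most genes at 1.5 times differed. They were touch and rapid stress (5 of 12, with 0 raised at 5 min) and the shade-raised markers (4 of 12, with 1 raised).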
